A study of Mus musculus with 36 samples.

Results

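High-fat diet (HFD) was compared with normal chow diet (NCD) in the visceral white adipose tissue (visWAT) of WT mice. The members of the comparison are the libraries that the sample labels assign to WT visceral fat, 5 on HFD (mice 154, 155, 161, 162 and 164) and 4 on NCD (mice 165, 180, 182 and 183). They are 9 of the 18 visWAT libraries and 9 of the 36 libraries of the series, which also holds liver and *Mlkl* Adi-KO mice. The study was designed to ask what *Mlkl*, which encodes an executor of necroptotic cell death, does in adipocytes during obesity, and the WT mice give the response of the fat pad to diet when that gene is not deleted. All 9 mice were males of C57BL/6J background with loxP-flanked *Mlkl* alleles and without the adipocyte Cre of their knockout littermates, so both groups carried the same floxed alleles. Feeding started in adult mice aged 16 weeks and lasted for 16 weeks, with free access to food in both groups. The epididymal fat pad was taken as whole tissue, 1 library was made for each mouse, and no animals were pooled.

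White fat stores triglyceride in adipocytes, which take up fatty acids from blood, make some from glucose, and release them again by lipolysis. Adipocytes also secrete hormones, among them leptin, adiponectin and adipsin. When the visceral depot of a mouse expands on a fatty diet, adipocytes enlarge and many die, and macrophages gather around them and digest the lipid in their lysosomes. Fibroblast-like progenitors lie between the adipocytes and lay down the collagen matrix. Bulk RNA of the pad mixes all of these cells, and fewer cells of a type and less RNA per cell cannot be told apart in it.

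Levels are given as FPKM, that is, fragments on a gene divided by the length of the gene and by a size of the library. *Mlkl* itself was at 4.58, 5.19, 4.88, 5.50 and 6.28 FPKM in the HFD mice and at 5.11, 4.63, 2.29 and 3.91 FPKM in NCD mice 165, 180, 182 and 183. Its difference was 0.37 ± 0.17 (log2 fold change ± SE) and was not called (limma, adjusted p = 0.120). The *Mlkl* Adi-KO visWAT libraries lay between 1.96 and 2.72 FPKM, so the value of library 182 went against its WT label, and it is called the library labelled 182 here. Library 183 held transcripts of the seminal vesicle, a gland that lies next to the fat pad, at 30.7% of its reads, against 0.0365% in the library labelled 182 and at most 0.0006% in the other mice. Counts given first are over all 9 mice under their labels, and the count without 182 and 183 follows where it differed by more than 1 gene in either direction. The libraries held between 21580696 and 30322171 reads on genes. The FPKM of the other 7 mice summed to between 227793 and 269807, those of the library labelled 182 to 309820 and those of library 183 to 564718. The adipocyte markers *Adipoq* (743 to 1700 FPKM) and *Plin1* (198 to 474 FPKM) were high in every mouse. Of the T and NK cell list, 13 of 18 genes, among them *Cd3e*, *Cd4* and *Cd8a*, lay below the filter of a mean of 0.5 FPKM, and of the epididymis list 19 of 20 did.

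Diet went with changes in more than 1 in 3 of the genes tested. Of 14161 genes, 5347 passed an adjusted p of 0.05 (limma on log2(FPKM + 1) with Benjamini-Hochberg adjustment over all genes), 3108 of them higher on HFD (21.9%) and 2239 lower (15.8%). The median gene was at a log2 fold change of -0.01. Without 182 and 183, 7295 of 14015 genes passed, 3901 higher (27.8%) and 3394 lower (24.2%), and 4911 genes were called in the same direction both times, which is 91.9% of the first set and 67.3% of the second. These 4 percentages are the background against which each list below is read. The lists were chosen with earlier results of these data known, so their shares describe the data and are not independent support. The split between rises and falls depended on the scaling. When every library was rescaled to an equal FPKM sum, the median of all genes moved to 0.32 and 3931 genes were called higher against 225 lower. Seminal vesicle genes made up 324000 of the 564718 FPKM of library 183, so equal sums scaled its other genes down the most. With seminal vesicle and epididymis genes left out of the sums, 4069 genes were called higher and 1173 lower. At equal sum without 182 and 183, 4783 were higher and 2164 lower. Calls lost at equal sum over 9 mice carry this scaling of library 183. With edgeR on the recovered reads 2693 were higher and 3169 lower, and with DESeq2 3063 were higher and 3230 lower. Fold changes are therefore given on the deposited scale, with the equal-sum value where a direction or a call was lost. On the log2(FPKM + 1) scale they understate the change of genes near or under 1 FPKM.

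**Figure D1:**
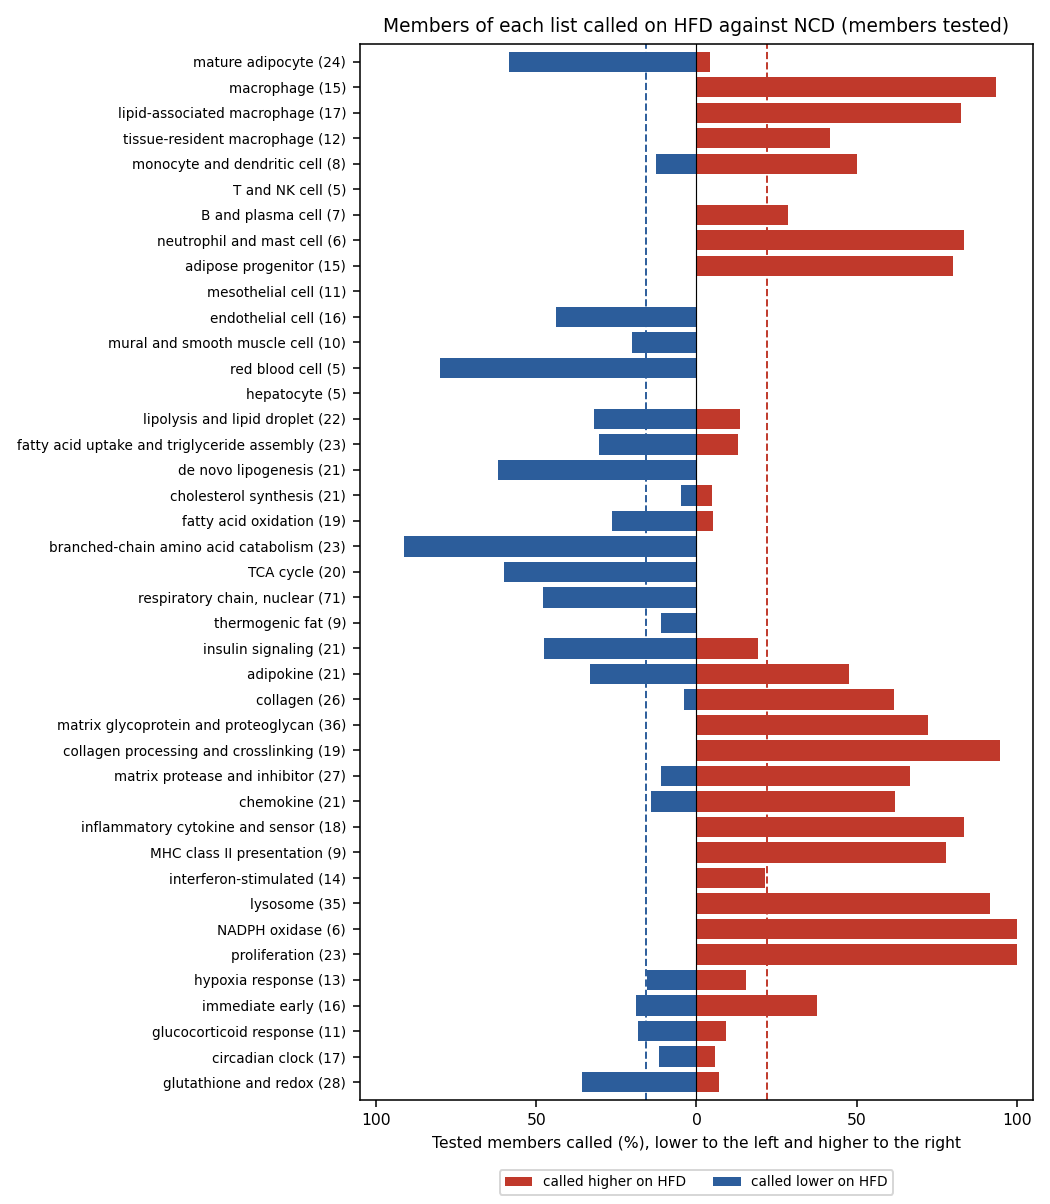
Share of the tested members of each gene list drawn that was called lower (bars to the left) or higher (bars to the right) on HFD, in percent of members tested, with the number tested in brackets and the background shares of all genes, 15.8% lower and 21.9% higher, as dashed lines. The Schwann cell, skeletal muscle, epididymis and seminal vesicle lists are not drawn. The macrophage, lysosome, NADPH oxidase, proliferation and crosslinking bars reach beyond 90% to the right, and the branched-chain amino acid bar reaches 91.3% to the left.

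Macrophage genes made up most of the leading rises. *Gpnmb* (mm39 chr6:49013480-49047863, plus strand) encodes a transmembrane glycoprotein of lipid-laden macrophages. It was at 180, 338, 321, 233 and 268 FPKM in HFD mice 154, 155, 161, 162 and 164, and at 3.04, 1.22, 1.21 and 2.61 FPKM in the NCD mice. The groups were far apart, with means of 268 ± 64.7 (SD, n = 5) and 2.02 ± 0.944 FPKM (SD, n = 4), a ratio of 132 and a log2 fold change of 6.49 ± 0.24 (limma, adjusted p = 2.48e-07). *Trem2*, a lipid receptor of macrophages, was at 37.0, 71.6, 68.8, 48.9 and 52.9 FPKM on HFD and at 0.716, 0.598, 0.784 and 0.805 FPKM on NCD, a log2 fold change of 5.004 ± 0.18. In both genes mouse 154 was the lowest and mouse 155 the highest of the HFD mice, and neither 182 nor 183 stood apart on NCD. *Cd68*, a lysosomal membrane protein used as a pan-macrophage marker, was at 244, 428, 398, 294 and 317 FPKM on HFD against 12.7, 10.1, 15.8 and 10.7 FPKM on NCD (4.65 ± 0.19).

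The 12 largest rises by the naming rule were *Gpnmb*, *Mmp12*, *Atp6v0d2*, *Ubd*, *Spp1*, *Adam8*, *Trem2*, *Itgax*, *Cd68*, *Sfrp5*, *Ctsk* and *Ctss*. *Mmp12*, the macrophage elastase, was at 49.8 to 87.8 FPKM on HFD and at 0.0222 to 0.656 FPKM on NCD, where the lowest value rests on 5 reads. *Spp1*, which encodes the secreted glycoprotein osteopontin, was at 29.0, 50.8, 51.7, 29.1 and 41.3 FPKM on HFD and between 0.0853 and 0.224 FPKM on NCD (5.13 ± 0.18). *Itgax*, the CD11c integrin of recruited fat macrophages and dendritic cells, was at 35.4 to 48.9 FPKM against 0.354 to 1.20 FPKM (4.67 ± 0.16). *Ubd*, a ubiquitin-like modifier, was at 128 to 192 FPKM on HFD and at 4.65, 4.21, 4.12 and 1.33 FPKM on NCD, the lowest in mouse 183. The values of all 12 genes in the HFD mice lay above those of every NCD mouse, as the rule required.

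**Figure D2:**
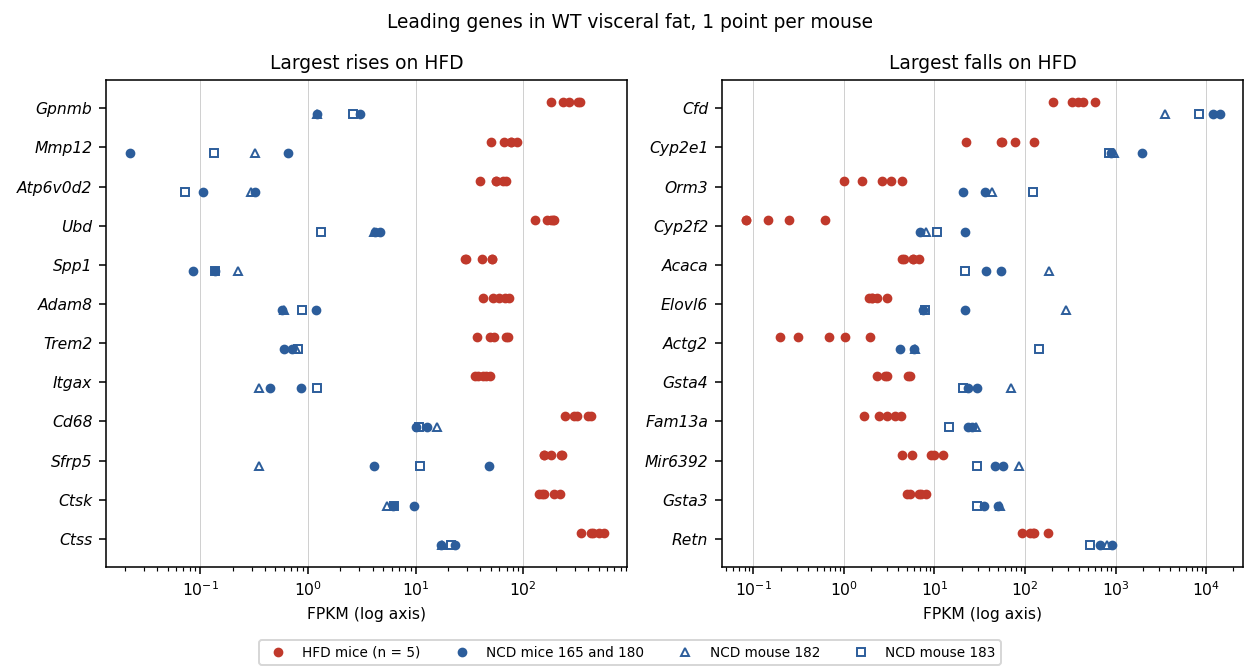
FPKM (log axis) of the 12 largest rises (left) and 12 largest falls (right) by the naming rule, 1 point per mouse, with the 5 HFD mice as red circles, NCD mice 165 and 180 as blue circles, and NCD mice 182 and 183 as an open triangle and an open square. *Gpnmb* lies at 180 to 338 FPKM on HFD against 1.21 to 3.04 on NCD, while *Cfd* lies at 204 to 590 FPKM on HFD against 3486 to 14090 on NCD, and mouse 182 stands far to the right for *Elovl6* and mouse 183 for *Actg2*.

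Of 15 macrophage genes tested, 14 rose and none was called lower, with a median log2 fold change of 2.36. *Adgre1*, which encodes F4/80, was at 67.7 to 104.9 FPKM on HFD and at 4.21 to 6.10 FPKM on NCD (3.80 ± 0.15), and *Tyrobp*, the signalling adaptor of *Trem2*, rose by 3.96. The exception was *Mertk*, a receptor for dead cells chosen here after its values were seen, at -0.28 and not called. The summed FPKM of the list ran from 2859 to 4072 on HFD and from 390.5 to 507.3 on NCD. Of 17 genes of lipid-associated macrophages, 14 rose and none was called lower, with a median of 2.95. The remaining 3, *Fabp5*, *Lpl* and *Acp5* (named after their values were seen), are also used by other cells of the pad, and without 182 and 183 *Fabp5* was called higher and *Lpl* and *Acp5* lower. Tissue-resident macrophage genes moved less. Of 12 tested, 5 rose (41.7% against 21.9% of all genes) and the median was 0.40. *Folr2*, a folate receptor, was at 14.4 to 21.9 against 1.73 to 2.96 FPKM (2.47), but 61.2% of its length overlaps a gene on the other strand and the strand setting of the counting is not given in the sources used here, so its level is uncertain. *Mrc1*, the mannose receptor, rose by 1.51 and *Clec10a*, a galactose-type lectin, by 1.55. The defining markers of the list were not called, *Lyve1* at 6.91 to 19.4 FPKM on HFD and 5.13 to 10.02 on NCD (0.53, adjusted p = 0.155), and *Timd4* at 0.397 to 1.12 against 0.695 to 0.983 FPKM (-0.22, adjusted p = 0.190).

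Lysosomal genes rose nearly as a whole. Of 35 tested, 32 were called higher and none lower, with a median of 1.33, and 34 were called higher without 182 and 183. They span the hydrolases, the proton pump and the membrane proteins. *Atp6v0d2*, a pump subunit of macrophages and osteoclasts, was at 39.98, 64.8, 68.7, 55.9 and 56.3 FPKM on HFD and between 0.0721 and 0.321 FPKM on NCD (5.58 ± 0.15). *Ctss*, the protease cathepsin S, was at 342 to 556 against 17.2 to 23.2 FPKM, and *Laptm5*, a lysosomal membrane protein of blood cells, at 79.8 to 121 against 11.5 to 13.9 FPKM. The genes with the smallest differences included *Mcoln1*, a lysosomal ion channel, at 0.25, and *Neu1*, a sialidase that was not called at 0.04 (both chosen after their values were seen). Many lysosomal genes share a promoter element bound by transcription factors of the MiT/TFE family, whose core holds the letters TCACGTG. These letters, searched on both strands, were present in the promoter windows of 7 of the 26 lysosome list genes found in RefSeq (26.9%) and of 1160 of 27025 genes in all (4.29%). The windows run from 250 bases before to 50 bases after each start. They are RefSeq sequences on build GRCm38.p6, which is not the build of the files. All 5 windows with more than 1 site are shown to place the element beside the value of the gene. *Gla* (alpha-galactosidase), *Ctsa* (cathepsin A), *Ctsd* (cathepsin D), *Lamp1* (a major membrane protein of lysosomes) and *Mcoln1*, named after their values were seen, had log2 fold changes of 2.32, 1.86, 1.33, 0.87 and 0.25. Their windows lie at chrX:134600956-134601255 (minus strand), chr2:164833523-164833822 (plus strand), chr7:142387778-142388077 (minus strand), chr8:13158911-13159210 (plus strand) and chr8:3500269-3500568 (plus strand), with the matches in capitals. Matches that overlap on the opposite strands are counted as 1 site.
Gla: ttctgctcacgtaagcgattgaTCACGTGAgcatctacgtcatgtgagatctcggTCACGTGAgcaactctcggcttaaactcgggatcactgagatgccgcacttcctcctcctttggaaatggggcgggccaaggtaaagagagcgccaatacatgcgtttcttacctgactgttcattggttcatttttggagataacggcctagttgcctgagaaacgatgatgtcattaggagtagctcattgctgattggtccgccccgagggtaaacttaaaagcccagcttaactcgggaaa
Ctsa: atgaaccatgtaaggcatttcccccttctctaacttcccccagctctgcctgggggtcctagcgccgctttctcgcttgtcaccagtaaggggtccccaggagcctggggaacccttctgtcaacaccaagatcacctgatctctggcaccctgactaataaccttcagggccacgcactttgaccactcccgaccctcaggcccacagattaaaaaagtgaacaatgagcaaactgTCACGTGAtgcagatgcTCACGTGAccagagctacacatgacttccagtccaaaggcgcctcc
Ctsd: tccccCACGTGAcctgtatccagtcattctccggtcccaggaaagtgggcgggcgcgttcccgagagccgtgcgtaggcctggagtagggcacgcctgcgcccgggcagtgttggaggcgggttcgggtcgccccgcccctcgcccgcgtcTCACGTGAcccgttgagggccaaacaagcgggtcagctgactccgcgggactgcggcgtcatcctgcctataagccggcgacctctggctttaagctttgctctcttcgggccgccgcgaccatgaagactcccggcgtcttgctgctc
Lamp1: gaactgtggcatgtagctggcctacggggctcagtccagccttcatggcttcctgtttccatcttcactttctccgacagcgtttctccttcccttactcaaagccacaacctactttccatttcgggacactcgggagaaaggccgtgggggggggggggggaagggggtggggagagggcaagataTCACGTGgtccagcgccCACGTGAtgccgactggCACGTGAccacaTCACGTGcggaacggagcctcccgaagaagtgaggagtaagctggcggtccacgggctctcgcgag
Mcoln1: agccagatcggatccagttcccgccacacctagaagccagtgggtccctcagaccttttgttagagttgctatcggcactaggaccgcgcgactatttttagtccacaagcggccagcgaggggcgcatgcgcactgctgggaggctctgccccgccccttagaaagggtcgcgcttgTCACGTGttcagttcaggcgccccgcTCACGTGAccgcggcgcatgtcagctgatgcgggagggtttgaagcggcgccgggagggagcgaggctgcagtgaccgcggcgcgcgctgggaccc
*Lamp1* has 4 sites and each of the others 2. *Gla* was at 9.45 to 15.7 FPKM on HFD and at 1.42 to 1.91 on NCD, and *Mcoln1* at 7.03 to 7.77 against 5.64 to 7.29 FPKM, with overlapping groups and a call lost without mouse 183 (0.23). *Lamp1* was at 291 to 348 against 151 to 211 FPKM. *Ctsd* was at 698 to 1088 against 257, 327, 802 and 233 FPKM, with the library labelled 182 inside the range of the HFD mice. A match of letters is a description of the window, and binding was not measured.

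Genes of antigen presentation, phagocyte oxidase and inflammatory signalling followed the same direction. All 6 NADPH oxidase genes tested rose, with a median of 2.23. Among them *Cybb*, the catalytic subunit, was at 17.1, 18.9, 19.8, 17.8 and 20.8 FPKM on HFD and at 2.34, 1.70, 1.98 and 1.70 FPKM on NCD (2.77 ± 0.09). Its membrane partner *Cyba* rose by 2.83. Of 9 genes of MHC class II presentation, 7 rose with a median of 1.61. *H2-DMb1*, a peptide-loading chaperone, was at 40.02 to 54.5 against 5.21 to 9.70 FPKM, *Cd74*, the invariant chain, rose by 1.78 and *H2-Aa* by 1.74. Genes of the H2 family resemble each other, and how reads that fit several of them were counted is not given in the sources used here.

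Of 21 chemokines, 13 rose and 3 fell. *Ccl2*, the main attractant of monocytes, was at 12.7, 25.0, 15.6, 11.98 and 13.7 FPKM on HFD and at 2.25, 0.791, 3.44 and 1.61 FPKM on NCD (2.50 ± 0.28, limma, adjusted p = 0.000107). *Ccl9* was at 79.2 to 117 against 8.01 to 12.2 FPKM (3.17), and *Ccl6* rose by 2.62. The 3 called lower were *Ccl21a*, a lymphatic chemokine (-1.84), *Ccl19*, which like it guides T cells and dendritic cells (-1.13), and *Ccl12* (-0.82). *Ccl12* was not called without 182 and 183 or without mouse 180, *Ccl21a* not without mouse 155, 161, 164, 165, 180 or 183 (-1.92 to -1.38), and both not at equal sum. Of 26 inflammatory cytokines and sensors, 18 passed the filter, and of these 15 rose and none was called lower. The filter takes the mean over all 9 mice, so genes low on NCD, such as *Il1rn* below, can pass through their HFD values. The share called is therefore in part set by the filter. *Il7r*, a cytokine receptor, rose by 3.27, *Tlr13*, a sensor of bacterial RNA, by 3.18, and *Il1rn*, which encodes the antagonist of interleukin 1, by 2.75. *Il1rn* was between 4.07 and 7.92 FPKM on HFD and between 0.0290 and 0.0813 FPKM on NCD. *Tnf*, chosen after its values were seen, was at 1.09 to 1.64 against 0.257 to 0.405 FPKM (0.77, called). *Il1a*, *Il1b*, *Il6* and *Il10* lay below the filter and were not tested. Interferon-stimulated genes stayed near the background, with 3 of 14 called higher (21.4%) and a median of 0.17, and 6 were called higher at equal sum. The 3 were *Oas1a* (1.49), *Oasl2* (0.66) and *Oas2* (0.36, lost without any of 6 single mice), RNA sensors of a family of close copies.

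Other immune cells showed mixed differences. List medians were 0.40 for monocytes and dendritic cells and 0.24 for B and plasma cells, against 1.80 for neutrophils and mast cells. Of 8 monocyte and dendritic cell genes tested, 4 rose and 1 fell. *Ccr2*, the receptor for *Ccl2*, was at 4.39 to 5.82 against 1.19 to 2.36 FPKM (1.11), and *Ccr7*, a homing receptor, rose by 0.69. *Clec9a* and the defining marker *Ly6c2* were called at 0.42 and 0.37 but not without 182 and 183, and *Clec9a* overlaps another gene over 77.1% of its length on the other strand. *Itgae* fell by 0.55. None of the 5 T and NK cell genes tested was called by limma, edgeR or DESeq2, with a median of 0.18. At an unadjusted p of 0.05, 3 passed, and at equal sum *Nkg7* and *Cd2* (chosen after their values were seen) were called higher. Of 7 B and plasma cell genes, *Cd22* (1.12), an inhibitory receptor, and *Ighm* (1.82), the heavy chain of IgM, were called higher, *Ighm* not without any 1 of the HFD mice (1.74 to 1.92), while *Cd79a* and *Cd79b*, the signalling chains of the B cell receptor, were at 0.23 and 0.24, were not called, and changed sign when mouse 162 was left out. Of 11 neutrophil and mast cell genes, 6 passed the filter, which genes low on NCD can pass through their HFD values, and 5 of these rose. The mast cell proteases *Mcpt4* (15.4 to 34.0 against 2.03 to 8.78 FPKM) and *Cma1* (14.3 to 31.9 against 2.20 to 7.85 FPKM) rose by 2.09 and 2.08, and *S100a8*, a calcium-binding protein of neutrophils, by 2.21.

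Cell cycle genes rose from low levels. Of the 26 genes of the list 23 passed the filter, and all 23 were called higher, with a median of 1.08. The summed FPKM of the list was only 65.3 to 108.7 on HFD and 24.3 to 34.9 on NCD. The filter takes the mean over all 9 mice, so genes as low as these can pass through their HFD values. The share called is therefore in part set by the filter. *Ccnb2*, a mitotic cyclin, was at 3.25, 5.26, 5.49, 3.99 and 3.69 FPKM on HFD and at 0.588, 0.840, 1.04 and 0.512 FPKM on NCD (1.60 ± 0.15). *Birc5*, a subunit of the chromosomal passenger complex, rose by 1.42, and *Mcm5*, a subunit of the replicative helicase, by 1.32. The promoters of genes that peak late in the cell cycle often carry the cell cycle homology region, whose core is TTTGAA. On both strands, 12 of 22 list genes found in RefSeq (54.5%) held these letters, against 5466 of 27025 genes in all (20.2%). A run of 6 letters is frequent by its length. Of the 4 windows with 2 matches, that of *Mki67* is not shown, and the others are those of *Ccnb2*, *Top2a* (a topoisomerase that untangles chromosomes) and *Cdk1* (the mitotic kinase), the last 2 chosen after their values were seen. The windows shown lie at chr9:70421505-70421804, chr11:99024140-99024439 and chr10:69352863-69353162 of GRCm38.p6, all on the minus strand, with the matches in capitals.
Ccnb2: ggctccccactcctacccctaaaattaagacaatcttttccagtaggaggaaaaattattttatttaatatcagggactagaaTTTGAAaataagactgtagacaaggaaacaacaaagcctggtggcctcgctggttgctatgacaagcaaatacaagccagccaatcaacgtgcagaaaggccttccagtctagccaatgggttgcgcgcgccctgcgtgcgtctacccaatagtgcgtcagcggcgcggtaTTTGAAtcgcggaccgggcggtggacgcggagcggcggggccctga
Top2a: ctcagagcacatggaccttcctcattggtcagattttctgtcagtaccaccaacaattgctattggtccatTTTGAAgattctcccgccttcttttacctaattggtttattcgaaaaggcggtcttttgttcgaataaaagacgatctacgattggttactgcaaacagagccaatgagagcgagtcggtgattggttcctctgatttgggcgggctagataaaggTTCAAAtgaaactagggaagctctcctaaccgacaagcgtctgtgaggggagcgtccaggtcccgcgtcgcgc
Cdk1: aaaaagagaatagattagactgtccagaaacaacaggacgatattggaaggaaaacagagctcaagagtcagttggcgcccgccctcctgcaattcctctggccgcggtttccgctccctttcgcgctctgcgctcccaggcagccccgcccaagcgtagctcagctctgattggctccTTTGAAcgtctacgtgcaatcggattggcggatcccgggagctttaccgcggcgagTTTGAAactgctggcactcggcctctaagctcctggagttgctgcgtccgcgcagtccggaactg
*Top2a* was at 1.96 to 2.84 FPKM on HFD and at 0.362, 0.403, 0.950 and 0.435 FPKM on NCD (1.14). *Cdk1* was at 1.55 to 2.63 against 0.279 to 0.643 FPKM (1.08). The library labelled 182 was the highest NCD mouse for all 3 genes and still lay below every HFD mouse. Which cells of the pad carried these transcripts was not measured.

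The matrix and the cells that make it formed the next group of rises. Of 15 adipose progenitor genes tested, 12 rose and none was called lower, with a median of 0.77. *Pdgfra*, the growth factor receptor that marks these cells, was at 8.90, 7.73, 7.41, 6.28 and 8.42 FPKM on HFD and at 3.83, 2.75, 3.23 and 2.82 FPKM on NCD (1.07 ± 0.11). *Mfap5*, a microfibril protein of early progenitors, was at 24.8 to 34.6 against 6.38 to 12.2 FPKM (1.67). *Pdgfrb*, shared with mural cells, rose by 0.99 and *Cxcl14* by 1.12, although *Cxcl14* was at 5.70 FPKM in mouse 183, inside the range of the HFD mice.

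Of 26 collagen genes tested, 16 rose and 1 fell, with a median of 0.83. The fibrillar *Col1a1* (mm39 chr11:94827050-94843868, plus strand) was at 95.2, 126, 120, 107 and 101 FPKM on HFD and at 27.3, 17.3, 34.8 and 21.3 FPKM on NCD (2.12 ± 0.19, limma, adjusted p = 2.42e-05). *Col6a2*, a chain of the beaded collagen around adipocytes, was at 86.0 to 108 against 18.6 to 30.8 FPKM (1.97 ± 0.16), and *Col16a1*, a collagen that associates with fibrils, rose by 1.99. In 16 of the 26 genes every HFD mouse lay above every NCD mouse, as in 2773 of all 14161 genes. Of the collagens called higher, only *Col14a1* had overlapping groups (7.64 to 10.8 against 1.95 to 7.94 FPKM, chosen after its values were seen). *Col23a1*, a transmembrane collagen, was called lower at -0.48, a call lost at equal sum (-0.23) and without any of 6 single mice. Of 36 glycoproteins and proteoglycans, 26 rose and none was called lower, with a median of 0.84, and without 182 and 183 23 rose and 1 fell. *Lum*, which spaces collagen fibrils, was at 71.4, 126, 93.3, 69.7 and 86.1 FPKM on HFD and at 16.3, 13.0, 23.6 and 10.2 FPKM on NCD (2.46). *Mfap2*, a microfibril protein, rose by 2.04, and *Spp1* belongs to this list too.

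The enzymes that mature collagen rose almost without exception. Of 19 tested, 18 were called higher with a median of 0.78, and *P4ha2*, a prolyl hydroxylase chosen after its values were seen, was at 0.20 and not called. *Loxl1*, a lysyl oxidase that crosslinks elastic fibres, was at 41.2, 48.9, 42.7, 36.1 and 36.7 FPKM on HFD against 11.9, 9.53, 14.6 and 13.3 FPKM on NCD (1.66 ± 0.13). The procollagen peptidase enhancers *Pcolce2* and *Pcolce* rose by 2.05 and 1.41. Matrix proteases and their inhibitors were split, with 18 of 27 called higher and 3 lower. Besides *Mmp12*, the largest rises were *Adam8*, a membrane protease of leukocytes (42.1 to 72.8 against 0.575 to 1.19 FPKM), and *Ctsk*, the collagen-cutting cathepsin K (140 to 219 against 5.37 to 9.65 FPKM). *Mmp9*, gelatinase B, went the other way. It was at 0.391, 0.247, 0.259, 0.446 and 0.262 FPKM on HFD and at 2.77, 2.71, 3.29 and 3.48 FPKM on NCD (-1.62 ± 0.08), and *Adamts9* and *Mmp15* fell by 0.65 and 0.56, both not called at equal sum.

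**Figure D3:**
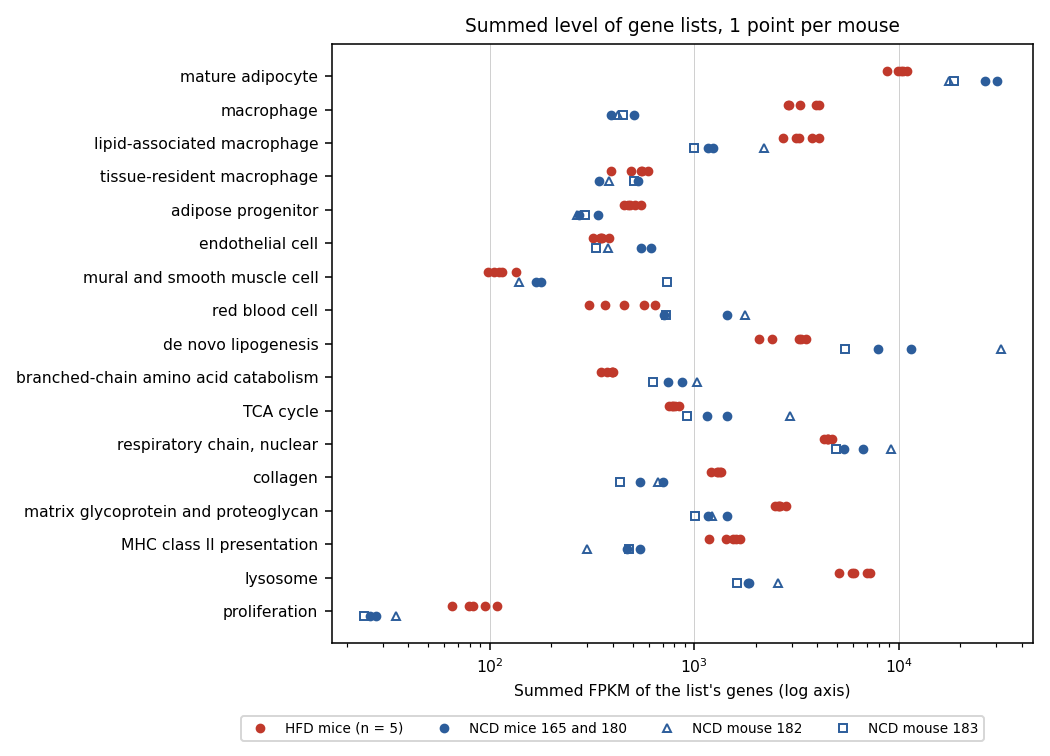
Summed FPKM of the genes of 17 lists (log axis), 1 point per mouse, with HFD mice as red circles, NCD mice 165 and 180 as blue circles, mouse 182 as a triangle and mouse 183 as a square. The macrophage sum lies at 2859 to 4072 on HFD against 390.5 to 507.3 on NCD, the lipogenesis sum reaches 31680 in mouse 182 and the mural sum 739.6 in mouse 183.

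Adipocyte genes fell in most cases. Of 24 tested, 14 fell and 1 rose, with a median of -0.67, and without 182 and 183 18 fell with a median of -0.92. At equal sum 5 were called lower and 1 higher, and at equal sum without 182 and 183, 16 lower and 2 higher. The summed FPKM of the list was 8745 to 10950 on HFD and 17630 to 30120 on NCD. *Adipoq*, the gene of adiponectin, was at 989, 743, 890, 961 and 972 FPKM on HFD and at 1700, 1675, 1133 and 1114 FPKM on NCD (-0.60 ± 0.18, limma, adjusted p = 0.0269), a call lost at equal sum (-0.12) and when mouse 155, 161, 165 or 180 was left out (-0.60 to -0.50). *Plin1*, the coat protein of the lipid droplet, was at 198 to 266 against 300 to 474 FPKM (-0.77 ± 0.15), also lost at equal sum (-0.29). *Adrb3*, the adrenergic receptor that starts lipolysis in adipocytes, was at 60.3, 34.1, 37.7, 58.2 and 53.4 FPKM on HFD and at 245, 296, 172 and 172 FPKM on NCD (-2.16 ± 0.23). Another gene overlaps 44.4% of *Adrb3* on the other strand.

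The hormones of adipocytes moved in both directions. *Lep*, the gene of leptin, was at 620, 544, 624, 591 and 630 FPKM on HFD and at 193, 151, 83.8 and 122 FPKM on NCD, so that the HFD mice were close together and all above the NCD mice (2.18 ± 0.21). *Cfd* (mm39 chr10:79726687-79728489, plus strand), the gene of the complement protease adipsin, was the largest fall by the naming rule, at 438, 204, 382, 590 and 331 FPKM on HFD and at 12030, 14090, 3486 and 8360 FPKM on NCD (-4.51 ± 0.44, limma, adjusted p = 4.53e-05). The means were 389 ± 142 (SD, n = 5) and 9491 ± 4652 FPKM (SD, n = 4), 24.4 times higher on NCD, and the lowest NCD value was that of the library labelled 182. *Retn*, the gene of resistin, was at 92.5 to 182 against 516 to 904 FPKM (-2.51 ± 0.22). *Agt*, the gene of angiotensinogen, fell by 1.77 (not called at equal sum), with an overlap on the other strand over 30.8% of its length. *Sfrp5*, a secreted Wnt inhibitor of adipocytes, was at 180, 156, 226, 225 and 157 FPKM on HFD and at 48.2, 4.11, 0.350 and 11.0 FPKM on NCD (4.55 ± 0.84). The NCD mice differed more than 100-fold among themselves for this gene, with the lowest value in the library labelled 182, and without 182 and 183 its log2 fold change was 3.56. *Mest*, an imprinted gene that marks adipocyte enlargement, was at 58.5 to 96.4 against 3.26 to 24.6 FPKM (2.99), with an overlap on the other strand over 47.7% of its length. Of 21 adipokine genes, 10 rose and 7 fell, and at equal sum 11 were called higher and 2 lower. At equal sum without 182 and 183, 11 were called higher and 7 lower.

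The other leading falls held enzymes of detoxification and lipid synthesis. *Cyp2e1*, a cytochrome that oxidises ethanol and acetone, was at 76.7, 22.4, 53.6, 126 and 55.2 FPKM on HFD and at 882, 1956, 954 and 840 FPKM on NCD (-4.21 ± 0.45). *Cyp2f2*, another cytochrome, was at 0.0820 to 0.615 against 6.87 to 21.8 FPKM, *Gsta4* and *Gsta3*, glutathione transferases of a family of close copies, fell by 2.85 and 2.51, and *Orm3*, an acute phase protein with close copies, was at 0.991 to 4.37 against 20.9, 36.5, 43.1 and 123 FPKM, highest in mouse 183. *Fam13a*, a locus linked to fat distribution, was at 1.67 to 4.25 against 14.4 to 28.4 FPKM (-2.59). *Mir6392* was counted over a locus of which 98.1% lies inside *Pnpla3* on the same strand, and its value cannot be told apart from that of *Pnpla3*, a lipase of the lipogenesis list chosen after its values were seen (66.9 to 92.2 against 229 to 437 FPKM). *Actg2*, an actin of smooth muscle, was at 0.194 to 1.95 FPKM on HFD and at 4.13, 5.94, 6.12 and 144 FPKM on NCD, with mouse 183 the highest, and the call was lost without mouse 155 or 164 (-2.86 and -2.90).

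Fatty acid synthesis fell as a group, and its NCD level was set in part by 1 library. Of 21 genes of de novo lipogenesis, 13 fell and none was called higher, with a median of -1.76 and, without 182 and 183, 15 of 20 with a median of -1.36. At equal sum 7 of the 21 were called lower, and at equal sum without 182 and 183, 15 of 20. *Acaca* (mm39 chr11:84020498-84292477, plus strand), acetyl-CoA carboxylase, which makes malonyl-CoA, was at 5.85, 4.36, 4.65, 5.72 and 6.67 FPKM on HFD and at 37.3, 53.9, 184 and 21.8 FPKM on NCD (-3.09 ± 0.50). *Elovl6*, which elongates palmitate, was at 1.87 to 2.97 FPKM on HFD and at 7.42, 21.5, 286 and 7.89 FPKM on NCD (-3.04 ± 0.91), a call lost without mouse 154, 155, 161, 162 or 180 (-3.11 to -3.00). In both genes the library labelled 182 was the highest NCD mouse, and without 182 and 183 the log2 fold changes were -2.84 and -2.10, both called. *Thrsp*, an activator of lipogenesis, fell by 2.34. *Scd1*, the main fatty acid desaturase, *Fasn*, fatty acid synthase, and *Acly*, ATP citrate lyase, were chosen after their values were seen. *Scd1* was at 2284, 1126, 1518, 2444 and 2160 FPKM on HFD and at 6047, 8395, 19900 and 3692 FPKM on NCD (-2.09 ± 0.46). *Fasn* was at 145 to 210 FPKM on HFD and at 446, 725, 2839 and 311 FPKM on NCD, and *Acly* at 35.7 to 50.4 FPKM against 109, 136, 1407 and 85.0 FPKM. All 3 fell also without 182 and 183, by 1.96, 1.74 and 1.51, while at equal sum over 9 mice *Fasn* and *Acly* were not called (adjusted p = 0.0535 and 0.0701). The summed FPKM of the list was 2082 to 3523 on HFD and 7935, 11510, 31680 and 5432 on NCD, so that the groups did not overlap.

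Genes of lipid storage and release showed smaller and mixed differences. Of 23 genes of fatty acid uptake and triglyceride assembly, 3 rose and 7 fell, with a median of -0.23, and without 182 and 183 6 rose and 10 fell. *Pck1*, which makes the glycerol backbone from lactate and amino acids, was at 114, 67.8, 136, 145 and 112 FPKM on HFD and at 724, 611, 231 and 402 FPKM on NCD (-2.01 ± 0.34). *Gpam*, the first acyltransferase of triglyceride synthesis, was at 10.5 to 15.5 against 23.7 to 66.6 FPKM (-1.52), and *Mogat1*, a monoacylglycerol acyltransferase, fell by 2.25. *Mogat2*, a related enzyme, rose by 1.22, *Angptl4*, an inhibitor of lipoprotein lipase, by 0.86 while *Vldlr*, a lipoprotein receptor, was at 0.46, a call lost without any of 7 single mice (0.33 to 0.48). Of 22 genes of lipolysis and the lipid droplet, 3 rose and 7 fell, with a median of -0.24, and without 182 and 183 3 rose and 10 fell. *Plin2*, the droplet coat of cells other than mature adipocytes, was at 231, 380, 335, 299 and 272 FPKM on HFD and at 58.2, 74.8, 346 and 52.0 FPKM on NCD (1.65 ± 0.50). The library labelled 182 lay inside the HFD range. The call was lost without mouse 155, 161, 162, 165, 180 or 183 (1.37 to 1.65) and held without 182 (2.27) and without 182 and 183 (2.16). *Hilpda*, an inhibitor of the lipase ATGL, rose by 1.69 and *Plin3* by 0.33. *Cidea*, a droplet protein of brown and beige fat, was at 1.75 to 3.61 FPKM on HFD and reached 72.5 FPKM in the library labelled 182 (-1.97), a call lost without any single mouse other than 165, 182 and 183 (-2.05 to -1.87), and *Pde3b*, through which insulin restrains lipolysis, fell by 1.19. The medians of both lists turned positive at equal sum (0.25 and 0.17) and stayed below the median of all genes on that scale, with 4 called higher and 3 lower in the first list and 3 higher and 1 lower in the second. At equal sum without 182 and 183 the medians were -0.08 and -0.18. There 7 were called higher and 8 lower in the first list, and 3 higher and 9 lower in the second. Of 21 genes of cholesterol synthesis, *Hmgcs1* rose (0.60) and *Fdft1* fell (-1.02), and without 182 and 183 8 rose and 2 fell.

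Of the lists for mitochondrial catabolism, the breakdown of branched-chain amino acids had the largest share of falls. Of 23 genes of that pathway, 21 fell (91.3% against 15.8% of all genes) and none was called higher, with a median of -0.97 and of -0.95 without 182 and 183. *Bcat2*, the transaminase of the first step, was at 21.5, 20.9, 23.7, 23.9 and 22.7 FPKM on HFD and at 55.4, 87.7, 65.3 and 58.5 FPKM on NCD (-1.50 ± 0.13). *Ivd*, which acts on the leucine branch, was at 17.5, 12.7, 15.4, 17.5 and 17.0 FPKM on HFD and at 52.2, 59.5, 52.5 and 42.4 FPKM on NCD (-1.63 ± 0.12), and *Acadsb*, its counterpart on the isoleucine branch, fell by 1.57. Unlike *Acaca* and *Elovl6*, *Bcat2* and *Ivd* gave values in the library labelled 182 that lay within those of the other NCD mice. The summed FPKM of the list was still highest in that library, at 1030 against 744.9, 871.7 and 630.8 in mice 165, 180 and 183. On HFD the sum was 350.5 to 399.2. In 21 of the 23 genes every HFD mouse lay below every NCD mouse, as in 1959 of all 14161 genes. *Mcee*, an epimerase chosen after its values were seen, was called lower with overlapping groups. At equal sum 5 of the 23 genes were called lower, and at equal sum without 182 and 183, 20.

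Of 20 genes of the TCA cycle with pyruvate entry, 12 fell and none was called higher, with a median of -0.68, and without 182 and 183 17 fell. *Pdha1*, a subunit of pyruvate dehydrogenase, was at 20.5 to 25.4 FPKM on HFD and at 50.2, 57.1, 167 and 37.4 FPKM on NCD (-1.43). *Pdhb*, its partner, fell by 1.42, with an overlap on the other strand over 27.8% of its length, and *Pcx*, pyruvate carboxylase, by 1.33, a call lost without mouse 155, 161 or 180 (-1.30 to -1.27). Of 71 nuclear genes of the respiratory chain, 34 fell (47.9%) with a median of -0.45, and without 182 and 183 50 fell and 1 rose. *Uqcrfs1*, the iron-sulfur subunit of complex III, was at 69.1, 72.1, 70.4, 76.7 and 80.6 FPKM on HFD and at 106, 138, 238 and 92.5 FPKM on NCD (-0.86 ± 0.24), a call lost without mouse 180 (-0.84). *Uqcrc2*, of the same complex and overlapped on the other strand over 29.7% of its length, fell by 0.85 and *Ndufa5*, of complex I, by 0.84. At equal sum none of the TCA or respiratory genes was called, and the respiratory median turned to 0.01, which is 0.31 below the median of all genes on that scale. At equal sum without 182 and 183, 16 of the 20 TCA genes were called lower and none higher. Of the 71 respiratory genes, 40 were then lower and 1 higher. Of 19 genes of fatty acid oxidation, 5 fell and 1 rose, with a median of -0.28. Without 182 and 183, 8 of 18 fell and 2 rose, and at equal sum 1 was called higher and none lower, with a median of 0.18. At equal sum without 182 and 183, 4 of 18 were called higher and 6 lower. *Cpt1a*, the enzyme that admits long-chain fatty acids to mitochondria, was at 19.6, 18.6, 18.8, 18.2 and 18.4 FPKM on HFD and at 8.47, 6.26, 8.47 and 8.02 FPKM on NCD (1.17 ± 0.09). *Echs1*, *Acot2* and *Eci1*, enzymes of the mitochondrial matrix, fell by 1.02, 0.88 and 0.81, and none of the 3 was called at equal sum. Of 9 thermogenic genes tested, *Cidea* alone was called over 9 mice, while without 182 and 183 2 of 7 rose and 2 fell, and at equal sum *Otop1* (chosen after its values were seen) was called higher and none lower. The summed FPKM of the thermogenic list was 423.1 in the library labelled 182. It was 39.9, 98.2 and 35.2 in NCD mice 165, 180 and 183, and 36.0 to 54.5 on HFD.

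Of 21 insulin signalling genes, 10 fell and 4 rose, with a median of -0.36 that turned to 0.02 at equal sum, where 2 were called lower and 5 higher. Without 182 and 183, 14 fell and 5 rose, and at equal sum without both, 10 were called lower and 5 higher. *Slc2a4*, the insulin-responsive glucose transporter, was at 20.9, 14.4, 20.9, 24.6 and 22.8 FPKM on HFD and at 61.0, 69.0, 161 and 42.8 FPKM on NCD (-1.80 ± 0.33). *Hk2*, which phosphorylates the glucose taken up, fell by 1.40, and the receptor *Insr*, chosen after its values were seen, by 0.81. The 3 largest rises were all of negative regulators, *Ptpn1* (0.69), *Grb14* (0.65, not called without mouse 154, 155, 162, 164 or 180) and *Socs3* (0.48). *Hk2* was not called at equal sum.

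Vessel genes were lower to a degree that depended on the libraries used. Of 16 endothelial genes, 7 fell and none was called higher, with a median of -0.41, and without 182 and 183 15 fell with a median of -0.69, while at equal sum over 9 mice none of the 16 was called. At equal sum without 182 and 183, 12 were called lower. *Pecam1* was at 26.9, 24.9, 25.6, 28.1 and 28.1 FPKM on HFD and at 39.0, 40.6, 24.8 and 20.5 FPKM on NCD, so that 182 and 183 lay below every HFD mouse and 165 and 180 above. Its log2 fold change was -0.16 and not called, -0.56 without 182 and 183 (limma, adjusted p = 0.000471), and 0.29 at equal sum. *Kdr*, the main receptor for VEGF, was at -0.66 (limma, adjusted p = 0.0471), a call lost at equal sum and without any mouse but 183 (-0.74 to -0.52), and it fell by 1.003 without 182 and 183.  *Ccl21a* and *Mmrn1*, both of lymphatic endothelium, were called at -1.84 and -0.98, and neither was called at equal sum. *Vegfa*, whose protein drives vessel growth, was at 16.3 to 27.1 FPKM on HFD and at 46.3 to 62.4 FPKM on NCD (-1.28), not called at equal sum. Of 10 genes of mural and smooth muscle cells, *Rgs5* (-0.83) and *Myh11* (-1.76) were called lower, while 4 were called lower without 182 and 183. *Rgs5* was not called at equal sum and *Myh11* not without mouse 154, 155, 161, 162, 164 or 165 (-1.92 to -1.61). *Myh11*, the smooth muscle myosin, was at 2.40 to 6.11 FPKM on HFD and at 11.3, 8.93, 7.99 and 78.3 FPKM on NCD, and without 182 and 183 it fell by 1.12. The summed FPKM of the list was 739.6 in mouse 183 and 139.4 to 177.7 in the other NCD mice, and 98.6 to 135 on HFD. The part of seminal vesicle tissue in the smooth muscle genes of mouse 183 was not tested.

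Of 5 red blood cell genes, 4 fell, among them *Hbb-bs* (-1.30), *Hbb-bt* (-1.55) and *Alas2*, which starts heme synthesis (-1.39). *Hba-a1* fell by 1.21 (not called without mouse 180, -1.06) and its near copy *Hba-a2* was at -0.52 and not called. At equal sum only *Alas2* of the list was called, and at equal sum without 182 and 183, 4 were called lower. How reads that fit several globin copies were counted is not given in the sources used here. None of 11 mesothelial genes was called by limma or edgeR, *Msln* and *Upk3b* included (0.70 and 0.08). At an unadjusted p of 0.05, 2 passed, and *Msln* was called higher by DESeq2 and at equal sum. Among 3 Schwann cell genes tested, *Mbp* rose by 0.62 and *Scn7a* fell by 1.18. The hepatocyte markers *Alb* and *Apoa1* were not called, with single high values in mouse 164 (53.2 and 23.5 FPKM). Of 3 skeletal muscle genes, *Myl1* fell by 0.90. None of the 11 seminal vesicle genes was called by limma or DESeq2, while edgeR called 10 of them lower. They made up 30.7% of the reads of mouse 183 and 0.0365% of those of the library labelled 182.

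**Figure D4:**
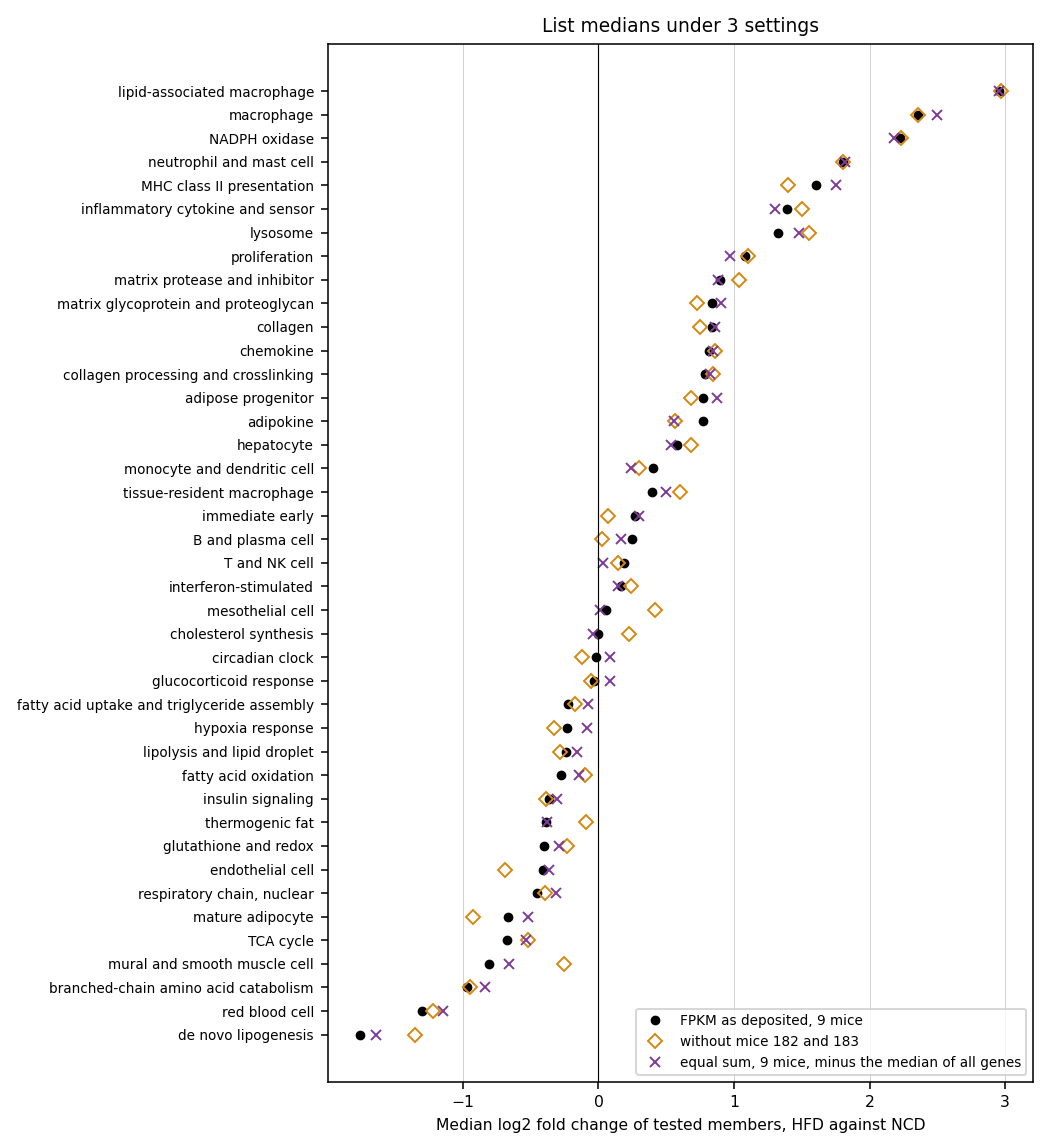
Median log2 fold change (HFD minus NCD) of the tested members of each list drawn under 3 settings, FPKM as deposited over 9 mice (filled circles), the same without mice 182 and 183 (open diamonds), and equal library sums over 9 mice after subtracting the median of all genes (crosses). The Schwann cell, skeletal muscle, epididymis and seminal vesicle lists are not drawn. The 3 marks lie close together at the top, with lipid-associated macrophages near 2.95 in all, and spread for de novo lipogenesis (-1.76, -1.36 and -1.64) and mural cells (-0.81, -0.25 and -0.66).

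The *Mlkl* Adi-KO mice of the same depot give levels beside those of WT mice, without a test, for 4 of the leading genes and for *Col1a1*. The other leading genes are not shown. *Gpnmb* was at 33.1 to 281 FPKM (median 164) in the 5 HFD-fed *Mlkl* Adi-KO mice and at 1.61 to 4.75 FPKM in the 4 NCD-fed ones, and *Cd68* at 78.6 to 370 FPKM (median 224) and 13.4 to 24.4 FPKM. *Cfd* was at 308 to 3853 FPKM (median 1907) on HFD and at 10660 to 12960 FPKM on NCD, *Col1a1* at 39.8 to 155 and 21.4 to 28.4 FPKM, and *Acaca* at 5.08 to 12.6 and 39.3 to 59.5 FPKM.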

How the data were processed

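RNA was sequenced from whole visWAT of 9 WT mice, 5 on HFD and 4 on NCD, and each library was placed in its group by its labels. Polyadenylated RNA was used by the authors, who cleaned the reads with fastp, aligned them to mm39 by HISAT2 and assigned them to genes by featureCounts 1.5.0-p3. Strand setting and annotation release are not given in the sources used here. The FPKM deposited by the authors cover 56748 genes, and the gene lengths in bases were deposited beside them. Raw counts were deposited by the authors only for the genes of their comparison tables. Those counts gave the library size behind each FPKM column, which exceeded the reads on genes by a factor of 1.3 to 1.4 in 7 mice, 1.08 in mouse 182 and 1.01 in mouse 183. With it, 100% of the deposited FPKM came out as whole reads (within 0.01), from 21580696 to 30322171 per library. The authors' log2 fold changes and p-values, their pathway tables, the liver files and 90 columns of values per sample were not used. Replicate libraries differed by a chi-square of at least 12.4 per gene, so none was a copy of another. The spread between mice is that of 1 library each.

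The test was limma 3.58.1 in R 4.3.3 on log2(FPKM + 1), moderated with a trend on the mean level, over the 9 mice, for genes with a mean of at least 0.5 FPKM, with Benjamini-Hochberg adjustment over all of them and a threshold of 0.05. Adjusted p-values are from this test unless another is named. The scripts were tested on simulated data. Other settings tried were no filter, a pseudocount of 0.1, a mean of at least 1 FPKM, equal FPKM sums with and without seminal vesicle and epididymis genes, edgeR 4.0.16 (quasi-likelihood) and DESeq2 1.42.0 on the recovered reads, the spread of all 18 visWAT mice, a further limit of 1 on the absolute log2 fold change, and leaving out each mouse and mice 182 and 183 together. The count tests called 5862 (edgeR) and 6293 genes (DESeq2). Equal sums and edgeR without mice 182 and 183 were chosen after seeing the data.

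The 45 gene lists (815 genes, 43 of them in several lists) were written from general knowledge, and the members and lists were chosen with earlier results of these data known. The genes named are the 12 largest rises and 12 largest falls whose mean reached 5 FPKM in either diet group, with no overlap between the groups, a call also without mouse 182 and without mouse 183, and a symbol that is not a predicted gene. In each list they are up to 3 rises and 3 falls at 1 FPKM or more and, for cell types, 2 defining markers, with *Mlkl* as the genotype check. A gene chosen by this rule is not reported here. Promoter windows of 300 bases are RefSeq sequences of build GRCm38.p6, and coordinates in them are of that build.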

Additional observations from a re-analysis of the deposited data

Results flagged for a closer look

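In groups of 4 or 5 mice, a value was looked at again when its gap to the nearest other mouse was a large part of the range of its group (Dixon's critical value). Chance alone gives such a gap in about 1 in 20 groups, and 160 genes were looked at in both groups. All values are FPKM.

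Most of these values belonged to NCD mice 183 and 182. In mouse 183 the seminal vesicle genes *Semg1* and *Aoc1l3* stood at 36638 and 12929, the muscle genes *Acta2*, *Actg2*, *Acta1*, *Myh11* and *Tagln* at 323, 144, 119, 78.3 and 4.47, the stress-responsive factor *Atf3* at 5.35 and *Cxcl14* at 5.70, all above the other NCD mice, while *Ubd* at 1.33 was below them. Other genes overlap *Tagln* on the other strand over 66.7% of its length, so its level is uncertain. In the library labelled 182, *Plin2* stood at 346, *Elovl6* at 286, *Pdhb* at 195, *Pdha1* at 167, *Cidea* at 72.5, *Mogat2* at 6.34 and *Nqo1* at 4.94, set apart from the other NCD mice. In NCD mouse 180 *Cyp2e1* was high at 1956 and *Upk3b* low at 11.3.

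Among the HFD mice, 162 was high for *Acta2* (63.7), *Cd79b* (5.20), *Semg1* (0.404) and *Aoc1l3* (0.0498). Mouse 164 was high for the hepatocyte genes *Alb* (53.2) and *Apoa1* (23.5) and apart for *Pdhb* (29.3) and *Col16a1* (10.5). Mouse 155 was apart for *Ccl2* (25.0), *Pcolce* (44.4) and *Bhlhe41* (3.68).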

How the results depend on the processing

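Of 5347 calls over 9 mice, 3108 were higher on HFD and 2239 lower. Leaving out 1 mouse gave 4244 to 6287 calls, 2610 to 3558 higher and 1572 to 2729 lower, with the fewest without HFD mouse 161 and the most without NCD mouse 183. The count of falls was 225 at equal sum and 1173 at equal sum without seminal vesicle and epididymis genes. Without mice 182 and 183 it was 3394 with limma and 3638 with edgeR. At equal sum without both mice 4783 genes were higher and 2164 lower. With a further limit of 1 on the absolute log2 fold change, 1179 genes were called, 912 higher and 267 lower. The cause of these shifts was not tested. No paired analysis was possible because the HFD and NCD groups share no mouse number.

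Of 3175 values recomputed for the 160 named genes, 2972 kept direction and side of the threshold, 168 lost the call, 19 gained one and 16 changed sign, and the cause was not tested. At equal sum 36 of these genes lost the call. The genes that changed sign had no call to lose except *Ier3* (0.0547 at equal sum). At equal sum *Pecam1* was at 0.29 (0.00285 without seminal vesicle and epididymis genes), *Cdh5* at 0.24 and *Acta1* at 0.22. Without 182 and 183 *Acta1* was at 0.26 with limma, at 0.28 with edgeR and at 0.37 at equal sum, where *Tagln* was at 0.0132. With edgeR *Alb* was at 0.046. Leaving out 1 mouse gave *Cd79a* -0.0269 (without mouse 162) to 0.41, *Cd79b* -0.0054 (without 162) to 0.36, *Upk3b* -0.21 (without 180; -0.10 without 162) to 0.24, *Apoa1* -0.14 (without 164) to 0.99 and *Acta1* -0.95 (without 182) to 0.83. Depth limits genes near 0.5 FPKM, which rest on few reads in short genes.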

Other observations

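Lists for the state of the tissue at collection gave smaller counts. Of 16 immediate early genes, 6 rose and 3 fell, with a median of 0.27, and at equal sum 6 were called higher and none lower. *Atf3*, a stress-responsive transcription factor, was at 41.5, 78.7, 67.5, 57.7 and 56.3 FPKM on HFD and at 2.36, 1.92, 2.02 and 5.35 FPKM on NCD (log2 fold change 4.02 ± 0.25, limma, adjusted p = 3.08e-06). *Egr2* rose by 2.27 and *Fos* by 2.08, while *Nr4a1* and *Ier3* were called lower at -0.46 and -0.32, calls lost at equal sum, where *Ier3* turned to 0.0547. The call of *Ier3* was also lost without mouse 161, 162, 164, 165, 180 or 182 (-0.34 to -0.26), and 34.8% of its length is overlapped on the other strand. Of 28 genes of glutathione and redox balance, 10 fell and 2 rose, with a median of -0.41. Without mice 182 and 183, 14 fell and 5 rose, and at equal sum 2 were called lower and 3 higher, with a median of 0.03. At equal sum without both mice, 13 were called lower and 10 higher. *Hmox1*, which degrades heme, was at 53.8 to 87.4 FPKM on HFD and at 12.1, 13.1, 28.6 and 9.49 FPKM on NCD (2.13 ± 0.28), *Sod3*, an extracellular superoxide dismutase, rose by 1.13, and *Nqo1* fell by 0.86 (not called at equal sum).

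Of 13 hypoxia genes, 2 rose, *Car9* (0.85) and *Adm* (0.63), and 2 fell, *Vegfa* and *Hk2*. *Car9* and *Adm* are overlapped on the other strand over 27.5% and 31.9% of their length. Without mice 182 and 183, 3 rose and 7 fell, and at equal sum 2 were called higher and none lower. At equal sum without both mice, 4 were called higher and 7 lower. Of 11 glucocorticoid-responsive genes, *Mt1* was called higher (0.71, not without mouse 155 or 162), and *Fkbp5* (-0.93, not called at equal sum) and *Zbtb16* were called lower. *Zbtb16* was at 3.41, 1.22, 2.04, 2.65 and 2.37 FPKM on HFD and at 19.2, 20.3, 13.8 and 10.9 FPKM on NCD (-2.35 ± 0.23), and in *Mlkl* Adi-KO mice it was at 1.94 to 2.80 FPKM on HFD and 5.36 to 10.7 FPKM on NCD. Of 17 clock genes, *Bhlhe41* rose (0.63) and *Nr1d1* (-1.07) and *Arntl* (-0.36) were called lower, the last 2 not at equal sum, where 4 were called higher and none lower. Without mice 182 and 183, 3 rose and 3 fell. *Nr1d1*, a repressor of the clock, was at 19.99 to 28.3 FPKM on HFD and at 43.8 to 61.1 FPKM on NCD, with 52.8% of its length overlapped by other genes on the other strand, *Thra* among them. The time of day of collection is not given in the sources used here.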
